A study of Mus musculus with 10 samples.

Results

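RUNX1 binding was examined around 5 genes of epithelial-mesenchymal transition in mouse bile duct cells, with and without TGFβ. The genes were Snai1, Snai2, Zeb1, Zeb2 and Cdh1. Sites were taken as all called peaks whose summit lay in a window around one of these genes, and peaks that overlapped by at least 1 bp in different libraries were merged into 1 site. The 5 windows held 57 sites of the 64286 merged sites in the whole genome. The windows, in the build GRCm39, ran on chromosome 2 from 167.33 to 167.43 Mb for Snai1, on chromosome 16 from 14.47 to 14.58 Mb for Snai2, on chromosome 18 from 5.54 to 5.83 Mb for Zeb1, on chromosome 2 from 44.82 to 45.06 Mb for Zeb2 and on chromosome 8 from 107.28 to 107.45 Mb for Cdh1. Each has flanks of about 50 kb around the gene, so the flanks also reach neighbouring genes (Spata2 and Rnf114 beside Snai1, Cdh3 and Tango6 beside Cdh1), and no site is assigned to a gene here.

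The cells were mouse large biliary epithelial cells (MLE), an epithelial culture from the larger bile ducts, plated at high density. One group received TGFβ at 10 ng/mL overnight and the other vehicle, and the labels name no genetic change. RUNX1-bound chromatin, cut enzymatically, was recovered with a polyclonal antibody and sequenced. The RUNX1 libraries numbered 3 for each treatment, with replicates 1 and 2 in batch 1 and replicate 3 in batch 2 per the labels. Values are given below in the order of the replicate numbers, so that the last of 3 is the batch 2 library. The labels do not say whether replicates 1 and 2 of a treatment came from separate cultures, so the spread between them may be technical. Markers of biliary cells could not be checked, because peak lists of 1 factor measure binding and not expression.

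Snai1 and Snai2 encode the zinc-finger repressors Snail and Slug, and Zeb1 and Zeb2 encode repressors with zinc fingers and a homeodomain. All of them bind E-box sequences and can silence Cdh1, the gene of E-cadherin, which holds neighbouring epithelial cells together. TGFβ signalling through SMAD proteins is a well-known inducer of these repressors and of the loss of E-cadherin in many epithelia. RUNX1 is a transcription factor that binds DNA together with its partner CBFβ and can act with SMAD proteins at TGFβ target genes.

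The lists differed in length and in strength of enrichment. They held from 14733 to 42050 peaks. Median fold enrichment, the authors' ratio of signal at the summit to background, was 3.08 to 3.33 in the 4 batch 1 lists. It was 2.60 and 2.42 in TGFβ and vehicle replicate 3. Median peak width was 523 to 735 bp in batch 1 and 343 and 319 bp in batch 2. Read totals are not in the lists. The number of fragments over a summit was worked back from each peak's deposited fold and p-value, and the lowest background of a list lay between 10.4 and 11.8 fragments in the 6 libraries. These whole numbers are the depth behind each fold, and their 95% Poisson intervals cover counting error only. In batch 1, 57.0% to 63.8% of the peaks of a list sat at its lowest background. In TGFβ and vehicle replicate 3 this held for 36.4% and 36.5%. The fold of such a peak is a ratio to a floor shared across its list.

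More sites were called with TGFβ in the Snai1, Zeb2 and Cdh1 windows in every pair of libraries, while the numbers in the Zeb1 window were close and the Snai2 window was nearly empty. None of these differences passed a test. In the Snai1 window, 9, 13 and 4 sites were called with TGFβ and 4, 8 and 1 with vehicle. The Zeb2 window had 12, 17 and 2 sites with TGFβ and 5, 8 and 1 with vehicle. For Cdh1 TGFβ gave 11, 15 and 2 sites and vehicle 4, 5 and 1. In batch 1, both TGFβ libraries were above both vehicle libraries in these 3 windows, and over all 6 libraries the groups overlapped because batch 2 was low under both treatments. The Zeb1 window had 4, 5 and 2 sites with TGFβ and 3, 4 and 2 with vehicle, so the groups overlapped within batch 1 as well. The Snai2 window had 0, 1 and 1 sites with TGFβ and 0 in each vehicle list.

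**Figure D1:**
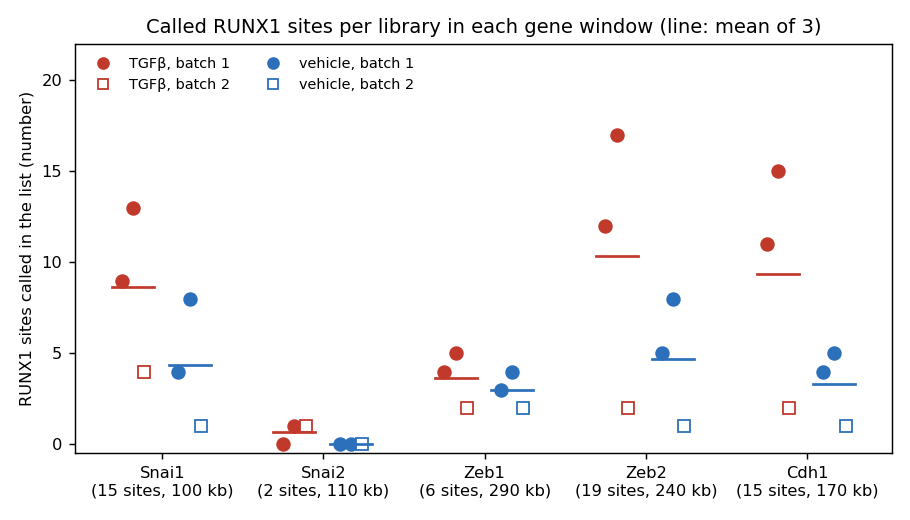
Number of RUNX1 sites called in each library (vertical axis) for each gene window (horizontal axis). Filled circles are batch 1 libraries, open squares batch 2 libraries, red TGFβ, blue vehicle, and lines are means of 3 libraries. Batch 2 lies at 4 sites or fewer in every window under both treatments.

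No difference could pass 0.05, since 3 against 3 libraries allow an exact two-sided permutation p no lower than 0.1. The Cdh1 window had 9.33 ± 6.66 sites with TGFβ and 3.33 ± 2.08 with vehicle (SD, n = 3, exact permutation p = 0.3). The Zeb2 window had 10.3 ± 7.64 and 4.67 ± 3.51 (SD, n = 3, exact permutation p = 0.3), and the Snai1 window 8.67 ± 4.51 and 4.33 ± 3.51 (SD, n = 3, exact permutation p = 0.3). The Zeb1 window had 3.67 ± 1.53 and 3 ± 1 (SD, n = 3, exact permutation p = 0.8), and the Snai2 window 0.667 ± 0.577 against 0 (SD, n = 3, exact permutation p = 0.4). Each difference was smaller than the SD of the TGFβ libraries, except in the Snai2 window, where it was 0.667 against an SD of 0.577. These p-values measure only the spread between the libraries. Both the SDs and the p-values take the 2 batches together. In the Snai1, Zeb2 and Cdh1 windows their spread therefore includes the gap between batches, as with 12 and 17 against 2 TGFβ sites for Zeb2. Within batch 1 the arrangement in the Snai1, Zeb2 and Cdh1 windows was the most extreme that 2 against 2 libraries allow (exact permutation p = 0.333, the smallest possible).

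In batch 1 the ratio of called sites in the windows was close to the ratio over the whole lists. Over the 5 windows together, 36 sites were called in TGFβ replicate 1 and 16 in vehicle replicate 1, a ratio of 2.25, and genome-wide the ratio of called sites in that pair was 2.37. TGFβ and vehicle replicate 2 called 51 and 25 sites, a ratio of 2.04 against 2.16 genome-wide. In batch 2 the windows had 11 sites with TGFβ and 5 with vehicle, a ratio of 2.2 against 1.13 genome-wide, from small numbers. The Cdh1 window had the highest ratios of batch 1, 2.75 and 3, and the Zeb1 window the lowest, 1.33 and 1.25. In lists limited to the 14733 peaks with the highest −log10 p, the Cdh1 window had 4, 4 and 1 sites with TGFβ and 4, 3 and 1 with vehicle, and the Zeb1 window 3, 3 and 2 against 3, 4 and 2. The difference of means then fell to 0.333 sites for Cdh1 and changed sign to -0.333 for Zeb1. It stayed above 0 for Snai1 (2.33) and Zeb2 (1.67).

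The windows also differed in how densely sites were packed. The Snai1 window held 15 sites in 100 kb, or 150 per Mb, and the Cdh1 and Zeb2 windows 88.2 and 79.2 per Mb. The Zeb1 and Snai2 windows held 20.7 and 18.2 per Mb. Across the chromosomes, counted from the first to the last site of each, the density was 24.3 per Mb, so Snai1 lay in the densest window and Zeb1 and Snai2 lay near the genome-wide level. The density is a count over all 6 lists together and carries no test.

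**Figure D2:**
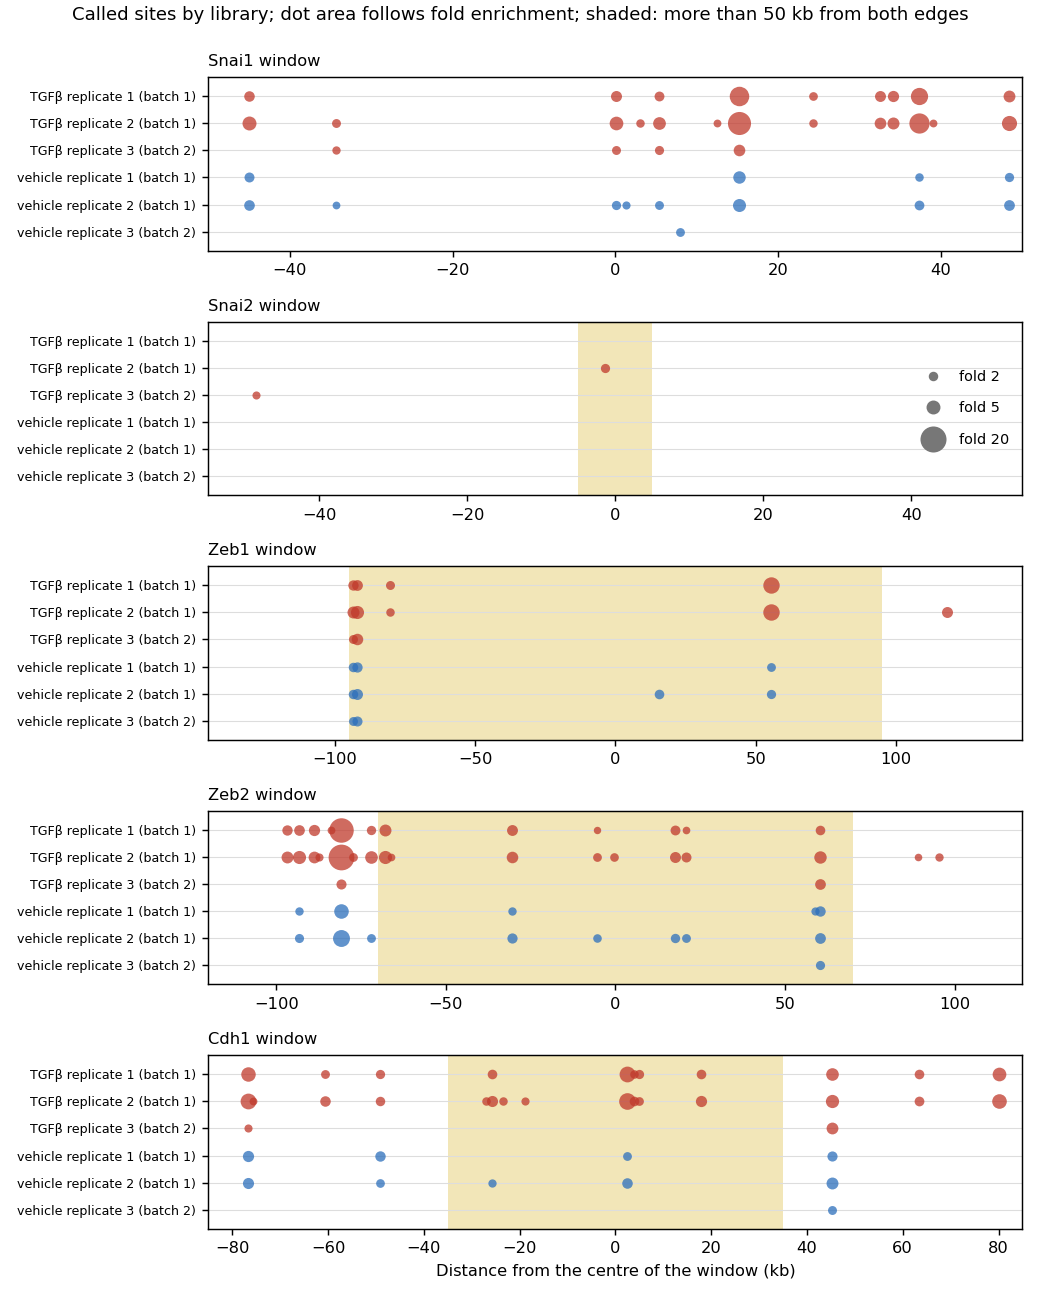
Called sites in each library (rows) by distance from the centre of each gene window in kb, with dot area proportional to fold enrichment, red for TGFβ and blue for vehicle. The shaded part lies more than 50 kb from both window edges; the Snai1 window is only 100 kb long and has no such part. The largest dots sit in the Zeb2 and Snai1 windows in the batch 1 TGFβ libraries.

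The window of Snai1, which encodes Snail, held 15 sites, and 7 of them were called in at least 3 lists. Over the 5 windows, this one included, this held for 23 of 57 sites, and the share over all merged sites was not computed. A call in all 4 batch 1 lists was found at 4 of the 15 sites (26.7%), against 17.7% of all sites. Sites are numbered by position within each window. The strongest was Snai1 site 9 on chromosome 2 from 167394251 to 167396074, 33.9 kb from the upper window edge. Its fold was 13, 18.1 and 4.59 with TGFβ and 5.30 and 5.79 with vehicle in batch 1, and it was not called in vehicle replicate 3. At the summit, 159, 206 and 65 fragments were recovered in the TGFβ libraries and 61 and 76 in those vehicle libraries. In batch 1 the Poisson intervals of both TGFβ libraries, 135 to 186 and 179 to 236, lay above those of both vehicle libraries, 46.7 to 78.4 and 59.9 to 95.1. A list without the site bounds its signal there only through the threshold of that list. The 5 summits lay within 101 bp of each other.

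Snai1 site 13, from 167415971 to 167418633, had the highest ratio of mean folds between treatments among the 15 sites of the windows called in all 4 batch 1 lists. In batch 1 its fold was 10.1 and 13.9 with TGFβ against 2.47 and 3.26 with vehicle, a ratio of batch 1 means of 4.20. It covered 1817 and 2591 bp with TGFβ and 341 and 823 bp with vehicle, so the covered length was larger as well. In TGFβ replicate 1 the 1817 bp were made up of 2 peaks, and the one that gave the fold was 986 bp wide. Batch 2 called it under neither treatment. Among all 11360 sites of the genome called in the 4 batch 1 lists, 99.1% had a lower ratio.

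The site next to the window centre, Snai1 site 3 from 167379653 to 167380427, was called in 4 lists. Its fold was 4.13, 6.37 and 2.74 with TGFβ, and the only vehicle call, in replicate 2, had 2.91. Snai1 site 6, from 167384725 to 167385907, had the same pattern of calls, with folds of 3.32, 5.52 and 2.84 with TGFβ and 2.71 in vehicle replicate 2. Both were thus present in every TGFβ list and in 1 vehicle list. In the batch 1 TGFβ libraries, the remaining Snai1 sites called in at least 3 lists had smaller folds than sites 9 and 13. Snai1 site 1, near the lower edge, had folds of 3.79 and 6.65 with TGFβ and 3.39 and 3.87 with vehicle in batch 1, so the treatments overlapped. Snai1 site 15, at the upper edge, had 4.78 and 7.80 against 2.91 and 3.96, with both TGFβ libraries above both vehicle libraries. Snai1 site 2 was called in TGFβ replicate 2 at 2.71, in TGFβ replicate 3 at 2.36 and in vehicle replicate 2 at 2.07.

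Snai2, which encodes Slug, had 2 sites in its window, each called once. Snai2 site 2, on chromosome 16 from 14523245 to 14523949, lay inside the 10 kb of the window that are more than 50 kb from both edges, and had a fold of 2.89 with 32 fragments in TGFβ replicate 2. The other had a fold of 2.23 with 28 fragments in TGFβ replicate 3 and lay 6.33 kb from the lower edge. Neither site was among the 14733 peaks of its list with the highest −log10 p. By −log10 q they outranked 36.2% and 10.6% of the peaks of their lists in that order. A peak in no vehicle list does not show that RUNX1 was absent there, since weaker signal stays under the threshold.

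Zeb1, a repressor gene on chromosome 18, had 6 sites in its window, and 2 of them were called in all 6 lists. Zeb1 site 1, from 5591285 to 5591929, had folds of 3.65, 4.91 and 2.77 with TGFβ against 3.08, 3.07 and 2.73 with vehicle. Zeb1 site 2, from 5592202 to 5593910, had folds of 3.97, 5.83 and 4.50 with TGFβ and 3.60, 4.12 and 3.44 with vehicle. These neighbouring sites lay 51.3 and 52.2 kb from the lower window edge, just inside the stretch more than 50 kb from both edges. The groups overlapped at both sites, at Zeb1 site 1 only across batches and at Zeb1 site 2 within batch 1 as well. TGFβ was the higher library in each of the 3 pairs at both sites. The ratios of batch 1 means, 1.39 and 1.27, were below the median of 1.5 over all sites called in the 4 batch 1 lists.

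Zeb1 site 5 had a larger ratio between treatments. It ran from 5739497 to 5741643, well inside the window. In batch 1 its fold was 9.16 and 9.20 with TGFβ and 2.66 and 2.91 with vehicle, a ratio of batch 1 means of 3.30. The TGFβ summits had 112 and 104 recovered fragments and the vehicle summits 30 and 35, and the Poisson intervals of the treatments did not meet. It was called in neither batch 2 list. The Zeb1 window thus held both sites called in every library and a site with a large ratio between treatments in batch 1. The other 3 sites were called in 1 or 2 lists each, with folds of up to 4.12.

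The Zeb2 window had the longest row of sites, 19, of which 8 were called in at least 3 lists. Over the 5 windows, this one included, the number was 23 of 57, and the share over all merged sites was not computed. A call in all 4 batch 1 lists was found at 4 of the 19 sites (21.1%), against 17.7% of all sites. The strongest site of the 5 windows was Zeb2 site 6, on chromosome 2 from 44857526 to 44860740, in the lower flank 37.5 kb from the window edge. Its fold was 20.4, 22.6 and 3.46 with TGFβ and, in batch 1, 7.23 and 9.76 with vehicle, with no call in vehicle replicate 3. The fragments at the summit numbered 251, 257 and 44 with TGFβ, and 84 and 121 with vehicle. The ratio of batch 1 means was 2.53, and both TGFβ libraries of batch 1 stood above both vehicle libraries, while the batch 2 TGFβ fold lay below them. By −log10 q, the site outranked 99.5% and 99.3% of the peaks of the batch 1 TGFβ lists, 95% and 97.7% of those of the batch 1 vehicle lists and 78.2% of those of TGFβ replicate 3. Its 5 summits lay within 40 bp, between 44859316 and 44859356, the tightest agreement among the sites of the Zeb2 window called in at least 3 lists.

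Weaker sites surrounded it. Zeb2 site 2, from 44845919 to 44847650, had folds of 3.89 and 5.87 with TGFβ and 2.40 and 2.83 with vehicle in batch 1. Zeb2 site 8, from 44867041 to 44868834, had 2.96 and 5.43 with TGFβ and 2.67 in vehicle replicate 2. A cluster singled out after its values were seen, between 44842546 and 44873882, held 10 of the 19 sites of the window, and all of them were called in at least 1 batch 1 TGFβ list. Such a call was found at 18 of the 19 sites of the window and at 52 of the 57 sites of all windows, so it does not set the cluster apart. The share over all merged sites was not computed. In the same stretch vehicle replicate 1 called 2 sites, vehicle replicate 2 called 3 and vehicle replicate 3 none. Genome-wide, TGFβ replicates 1 and 2 called 2.37 and 2.16 times as many sites as vehicle replicates 1 and 2.

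Toward the other end, Zeb2 site 17, from 44999258 to 45001596, was called in all 6 lists. Its fold was 3.15, 5.26 and 3.93 with TGFβ and 3.68, 3.96 and 2.87 with vehicle. The groups overlapped, vehicle replicate 1 being above TGFβ replicate 1, and the ratio of batch 1 means was 1.10. The summits were spread over 650 bp. It lay 58.4 kb from the upper edge. Between it and the cluster, Zeb2 sites 11, 12, 14 and 15 were called in 4, 3, 3 and 3 lists, with folds from 1.87 to 4.56, and none of these was called in batch 2.

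Cdh1, which encodes E-cadherin, had 15 sites in its window, and 5 of them were called with vehicle. A TGFβ call was lacking at 0 of the 15 sites, against 14.6% of all sites. A vehicle call was lacking at 10 of the 15 sites (66.7%), against 51.6% of all sites. Cdh1 site 13, on chromosome 8 from 107409721 to 107410668 in the upper flank, was called in all 6 lists. Its fold was 5.43, 5.96 and 4.76 with TGFβ and 3.51, 4.85 and 2.73 with vehicle. TGFβ was higher in each of the 3 pairs, by 1.55, 1.23 and 1.74 times, and within each batch every TGFβ fold was above every vehicle fold. The groups overlapped only across batches, with vehicle replicate 2 of batch 1 above TGFβ replicate 3 of batch 2. Its 6 summits lay within 82 bp.

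The site with the highest TGFβ folds in batch 1 was Cdh1 site 9, from 107366540 to 107368231, near the middle of the window. In batch 1 its fold was 8.51 and 9.47 with TGFβ and 2.66 and 3.80 with vehicle, a ratio of batch 1 means of 2.79. The TGFβ summits had 104 and 107 recovered fragments and the vehicle summits 30 and 46, and batch 2 had no call. Cdh1 site 1, from 107287568 to 107288748, had folds of 7.13, 8.50 and 2.25 with TGFβ and, in batch 1 alone, 4.28 and 4.20 with vehicle. Its batch 2 fold of 2.25 was below both vehicle folds of batch 1. Cdh1 site 4, from 107315654 to 107316136, went the other way, with 2.92 and 3.07 with TGFβ and 3.70 and 2.60 with vehicle, values that overlapped. Of the 15 sites called in all 4 batch 1 lists it was the only one with a ratio of batch 1 means below 1, at 0.950. Cdh1 site 6 had 3.16 and 4.21 with TGFβ and 2.34 in vehicle replicate 2.

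The Cdh1 window had the most sites called in both batch 1 TGFβ lists and in neither batch 1 vehicle list. These numbered 6 of 15 there, 3 of 15 in the Snai1 window, 3 of 19 in the Zeb2 window, 1 of 6 in the Zeb1 window and 0 of 2 in the Snai2 window. Together this was 13 of 57 sites, or 22.8%, where 16.0% of all merged sites met the same rule. Without TGFβ replicate 1 the number was 28, and without vehicle replicate 2 it was 20, since fewer lists then had to meet the rule. The reverse, a call in both vehicle lists and neither TGFβ list of batch 1, was met by 0 of 57 sites and by 0.204% of all sites. The clearest example, chosen after its values were seen, was Cdh1 site 15 from 107444587 to 107445683, with folds of 6.40 and 7.28 and with 78 and 82 fragments in the batch 1 TGFβ libraries. In lists of equal length, 6 of the 28 sites left in the windows met the TGFβ rule, or 21.4%, against 7.52% of all sites. The vehicle rule was then met by 0 of 28 and by 3.11% of all sites. Of those 6, 3 lay in the Zeb2 window, 2 in the Snai1 window and 1 in the Cdh1 window. The difference between these shares was not tested, and no test set the windows apart from each other.

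Of the 57 sites, 15 (26.3%) were called in all 4 batch 1 lists, against 17.7% of all sites, and their folds are set side by side here. Both TGFβ folds were above both vehicle folds at 11 of the 15, or 73.3%, and at 68.7% of all such sites. The reverse order was found at 0 of 15 and at 1.60% of all such sites. The members were thus close to the background in direction. The median ratio of batch 1 means was 1.83 over the 15 sites and 1.5 over all 11360. A mean TGFβ fold of at least 2 times the mean vehicle fold was seen at 5 of the 15, or 33.3%, against 19.9% of all such sites. Those 5 were Snai1 sites 9 and 13, Zeb1 site 5, Zeb2 site 6 and Cdh1 site 9. They include the site with the highest batch 1 TGFβ folds in each of these windows, and those folds enter the ratio itself. By mean batch 1 vehicle fold, Zeb1 site 5 (2.78) lay below Zeb1 sites 1 and 2 (3.08 and 3.86). Cdh1 site 9 (3.23) likewise lay below Cdh1 sites 1 and 13 (4.24 and 4.18). Snai1 site 9 and Zeb2 site 6 had the highest such fold of their windows. Each fold is relative to the background of its own list, so the ratios of batch 1 means describe the lists and carry no test.

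**Figure D3:**
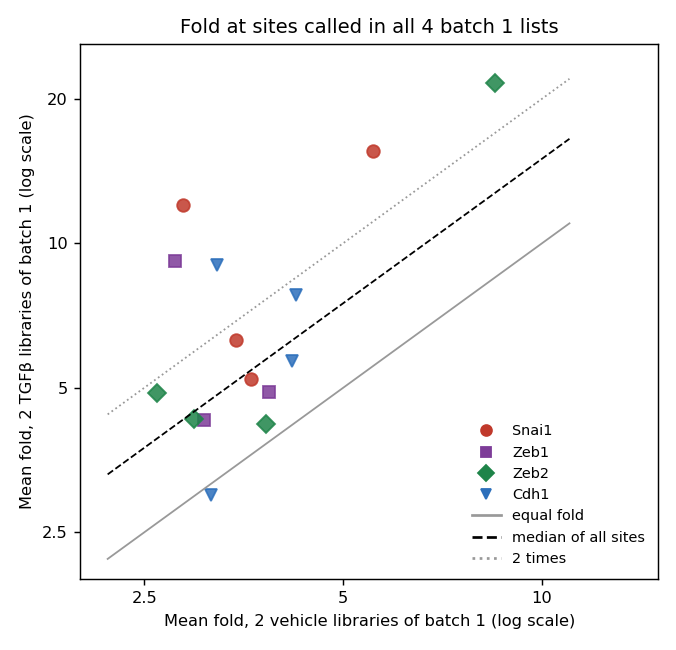
Mean fold in the 2 TGFβ libraries against mean fold in the 2 vehicle libraries of batch 1, both axes on a log scale, for the 15 sites called in all 4 batch 1 lists. The solid line marks equal folds, the dashed line the median ratio over all 11360 such sites of the genome and the dotted line a ratio of 2. Above the dotted line lie 5 sites, and 1 Cdh1 site lies below the solid line.

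**Figure D4:**
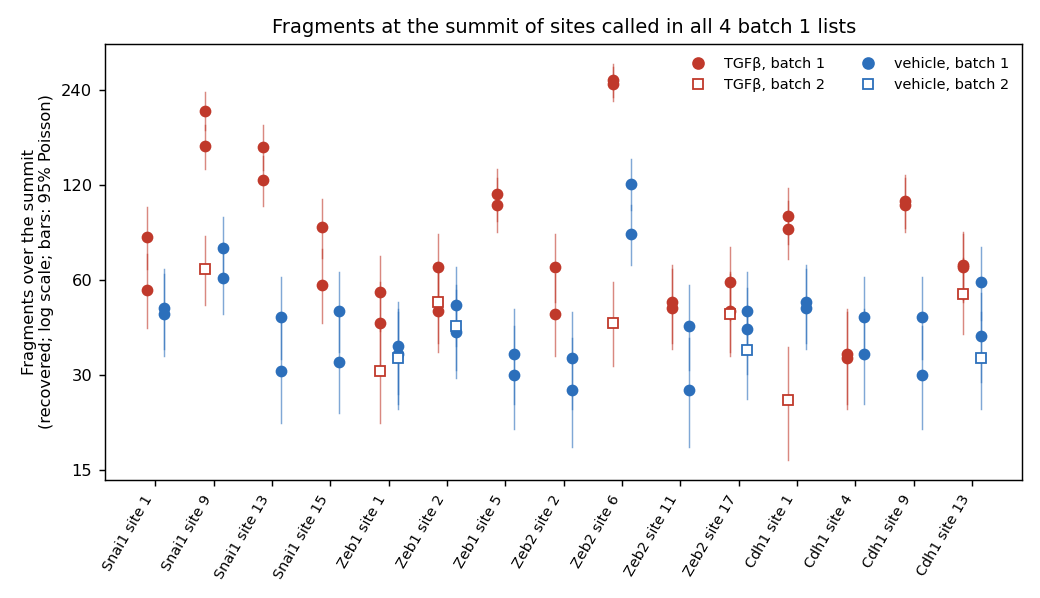
Fragments over the summit (log scale), worked back from the deposited values, for the 15 sites called in all 4 batch 1 lists. Filled circles are batch 1, open squares batch 2, red TGFβ, blue vehicle, and bars are 95% Poisson intervals. At Snai1 sites 9 and 13, Zeb1 site 5, Zeb2 site 6 and Cdh1 sites 1 and 9 both batch 1 TGFβ intervals lie above both vehicle intervals. At each of the other sites a batch 1 TGFβ interval overlaps a batch 1 vehicle interval.

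Batch 2 called 12 of the 57 sites, or 21.1%, against 40.2% of all sites. TGFβ replicate 3 called 7 sites that vehicle replicate 3 did not, or 12.3% of the 57 against 15.7% of all sites, and 4 of these lay in the Snai1 window. The reverse held for 1 site, in the Snai1 window, or 1.75% against 12.5% of all sites. Of the 5 sites with a ratio of at least 2 in batch 1, TGFβ replicate 3 called Snai1 site 9 and Zeb2 site 6 and vehicle replicate 3 called none. With 1 library per treatment in batch 2, no test was possible there.

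Across both batches, 4 of 57 sites (7.02%) were called in all 6 lists, against 6.36% of all sites. Without vehicle replicate 3, 7 sites were called in all remaining lists. The 4 were Zeb1 sites 1 and 2, Zeb2 site 17 and Cdh1 site 13. TGFβ was above vehicle in all 3 pairs at 3 of the 4, all but Zeb2 site 17, and at 72.3% of all sites called in 6 lists. Their highest folds, from 4.91 to 5.96 with a median of 5.55, were below the median of 8.15 for all sites called in 6 lists. A call in every TGFβ list without any vehicle call was found at 0 of 57 sites, a rule met by 0.619% of all sites. Likewise 0 were called in all 3 vehicle lists and no TGFβ list, against 0.0109% of all sites. A call in 1 list only was found for 21 of the 57 (36.8%), less than the 50% of all sites. Their folds had a median of 2.31, close to the 2.35 of all sites called once.

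Of 26 sites called in a batch 1 vehicle list, 23 (88.5%) were also called in a batch 1 TGFβ list, close to the 89.3% of all sites. No TGFβ call at all was found at 4 of the 57 sites (7.02%), against 14.6% of all sites. Named here after their values were seen, these were Snai1 sites 4 and 7, Zeb1 site 4 and Zeb2 site 16. Each was called in 1 vehicle list, with a fold of 2.26, 2.67, 3.15 and 2.31 in that order. Sites without any vehicle call numbered 30 (52.6%), close to the 51.6% of all sites, of which 10 lay in the Zeb2 window and 10 in the Cdh1 window.

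Width here is that of the merged site, which by construction can only grow as more lists add peaks. Over the 57 sites it ran from 240 to 3215 bp with a median of 837 bp. The 15 sites called in the 4 batch 1 lists had a median width of 1709 bp, against 1665 bp for all such sites of the genome. The 21 sites called once had 387 bp against 307 bp. Covered length with TGFβ was 5994 ± 5372 bp in the Cdh1 window against 1688 ± 1186 bp with vehicle (SD, n = 3, exact permutation p = 0.3). The same comparison gave 11669 ± 9260 bp and 3813 ± 2746 bp for Zeb2 (SD, n = 3, exact permutation p = 0.3) and 8745 ± 6813 bp and 3002 ± 2630 bp for Snai1 (SD, n = 3, exact permutation p = 0.3). The spread of covered length within the TGFβ group, taken over both batches, was nearly as large as its mean in these windows. TGFβ replicate 3 covered 676 bp in the Cdh1 window, 1204 bp in the Zeb2 window and 1407 bp in the Snai1 window.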

How the data were processed

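Each of the 6 RUNX1 ChIP libraries has 1 deposited peak list in narrowPeak format, and the 4 input libraries were not analysed here. The submitters' processing notes name Trimmomatic, Bowtie2 2.5.2, MACS2, DRAGEN and the builds mm39 and GRCm39, without settings; the control used and the threshold are not given in the sources used here. Per the values, the lowest −log10 q in each deposited list was about 1. The deposited values used are the fold enrichment at the summit, a ratio to the background set for that list, and the −log10 p and q by the authors' caller. The deposited score was not used. Coordinates are 1-based.

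Windows and members, and the rules applied to them, were chosen with earlier results of these data known. All rows of the 6 lists were merged genome-wide where they overlapped by at least 1 bp, and a site counts as called in a list that has a peak in it. Where a list had several peaks in a site, the one with the highest −log10 q gave the fold. Named sites are those called in at least 3 lists, and in the Snai2 window, which has none, the one with the highest fold. The few sites named outside this rule were chosen after their values were seen, as the text says beside them. The fragment number at a summit is the whole number that fits fold = (fragments + 1)/(background + 1) and an upper Poisson tail within 0.001 on the −log10 p scale, which was found for at least 99.99% of the peaks of each list with −log10 p under 280. The number of called sites per window was compared between treatments with an exact two-sided permutation test over all 20 labelings. Libraries were paired by batch and title wording: deviations from the group means over all merged sites correlated with r of 0.135, 0.225 and 0.418 in the 3 pairs, but also with 0.243 and 0.179 in the crossed pairs of batch 1, so the pairing within batch 1 rests on the titles. The gene table in hand covers GRCm38 and was used for names of neighbours only; distances to start sites, motifs, sequences and the planned list of other transition genes were not analysed here. Python 3.11.15, NumPy 2.4.6, SciPy 1.17.1 and Matplotlib 3.10.9 were used. The code for merging and calling was tested on simulated data, and that for the exact tests on small known cases. The recovery of fragment numbers was not tested on simulated data.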

Additional observations from a re-analysis of the deposited data

How the results depend on the processing

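The use of recovered fragments in place of the fold was chosen after seeing the data. Differences are the mean number of called sites with TGFβ minus vehicle: 4.33 for Snai1, 0.667 for Snai2, 0.667 for Zeb1, 5.67 for Zeb2 and 6 for Cdh1. For Snai1, Zeb2 and Cdh1 they stayed above 0 under the 15 alternatives run, down to 2.00, 1.33 and 0.333. Lists of equal length gave -0.333 for Zeb1 and 0 for Snai2, and a fold of at least 5 gave 0 for Snai2; by construction, fewer peaks remained. Leaving out 1 library gave 2.33 to 6.67 for Snai1, 0.5 to 1 for Snai2, 0 (without TGFβ replicate 2) to 1.5 for Zeb1, 2.83 to 9.83 for Zeb2 and 3.17 to 9.67 for Cdh1. The lowest values for Snai1, Zeb2 and Cdh1 came without TGFβ replicate 2 and the highest without TGFβ replicate 3. The replicate block, with libraries paired, leaves these means as they are, with exact sign-flip p = 0.25 for Snai1, Zeb2 and Cdh1, the smallest 3 pairs allow, and 0.5 for Snai2 and Zeb1, and changed no call.

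The 13 sites with both TGFβ calls and no vehicle call in batch 1 became 6 in lists of equal length, 6 at a fold of at least 5, 20 when a peak had to cover 50% of the site and 7 in windows trimmed by 25 kb. Leaving out 1 library gave 13 to 28, with 28 without TGFβ replicate 1 and 20 without vehicle replicate 2, by construction with fewer lists to satisfy. The 4 sites called in all lists became 1 when −log10 q had to reach 5, 0 when the fold had to reach 5, 2 with summit windows of 200 bp and 0 at 50% cover, and 4 to 7 with 1 library left out, 7 being without vehicle replicate 3. Ratios of recovered fragments at the 5 sites with a ratio of at least 2 ran from 2.48 to 3.66, against 2.53 to 4.20 from the folds. Without read counts, signal just under a list's threshold cannot be told from none.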
